A study of Mus musculus with 8 samples.

Results

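Wwox, the mouse gene for the WW domain-containing oxidoreductase, was examined here as 1 gene of the 56748 in the expression table, together with the 29 other genes whose start lies within 2 Mb of its own on chromosome 8. It was chosen by its own measured values in these libraries: its FPKM, the fragment count scaled to gene length and library total, was high in the Jak2V617F GLUT1/3 WT clones and low in the other groups, so its levels are described without a test. The data were bulk polyA RNA-seq from 32D cells, a mouse myeloblast-like bone marrow line kept alive with interleukin-3 (IL-3). All 4 groups carried a murine Jak2 transgene, which was Jak2WT in 2 groups and Jak2V617F, the activated kinase of myeloproliferative neoplasms, in the others. Within each background, GLUT1/3 WT cells kept the glucose transporter genes Slc2a1 and Slc2a3, and in GLUT1/3 dKO cells both had been edited with CRISPR-Cas9 after nucleofection. Each group held 2 clones, numbered 1 and 3, and every library came from cells held for 24 h in medium with glutamine at 1 mM, glucose at 5 mM and IL-3 at 2 ng/ml. All 4 groups were sampled as clones, and edited clones were grown from single cells. The paper states that cells were also diluted to single cells before editing. Features of a clone and of its genotype thus cannot be told apart beyond what 2 clones show. The paper lists the same Slc2a1 deletion size for all dKO clones of a background, so whether the 2 arose separately is not known. The p-values measure the spread between clones of 1 line.

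The protein joins WW domains, which bind short proline-rich motifs in partner proteins, to a short-chain dehydrogenase/reductase domain. It is known as a tumour suppressor that binds transcription factors and signalling proteins and can hold them in the cytoplasm. The human gene lies across a common fragile site, a stretch of very long transcription units that tends to break when replication is slowed, and it is often deleted in tumours.

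In the mouse genome (GRCm39, the build of the table) Wwox, ENSMUSG00000004637, covers chr8:115166395-116079447 on the plus strand. Its span of 913 kb was the 74th longest of 21970 protein-coding genes in the table, while the exon length used for its FPKM was 10173 bases. In GENCODE M39 the canonical transcript, Wwox-201, has 9 exons that all hold coding sequence, an mRNA of 2448 bases and 414 codons before the stop. Its longest intron, intron 8, is 639 kb long and takes up most of the gene. GENCODE lists 27 Wwox transcripts and only 2 of them reach the last exon of Wwox-201. The table gives 1 value per gene, so which exons or transcripts carried the reads was not measured.

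Recovered from the deposited values, the libraries held between 16846011 and 48884329 reads on genes. Slc2a1 stood at 44.7 and 48.4 FPKM in Jak2WT GLUT1/3 WT, at 9.47 and 9.17 in their dKO counterparts, 64.0 and 53.0 in Jak2V617F GLUT1/3 WT, and 17.3 and 12.7 in Jak2V617F GLUT1/3 dKO. Slc2a3 ranged from 91.9 to 198 FPKM in the 4 GLUT1/3 WT libraries and from 16.03 to 49.5 in the 4 GLUT1/3 dKO libraries, so both targeted transcripts were lower wherever the labels say they were edited. Jak2, native and transgenic reads together, was between 218 and 258 FPKM in the Jak2WT libraries and between 139 and 165 in the Jak2V617F libraries. The myeloid list was expressed in part: Csf2rb, a chain of the IL-3 receptor, lay between 48.9 and 190 FPKM in the 8 libraries and Ptprc (CD45) between 8.81 and 33.2, whereas Kit and Cebpa were at 0 in all of them and Mpo and Elane stayed at or under 0.121. The 5 fibroblast markers summed to at most 0.0341 FPKM in any library.

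Wwox was expressed in every library, at a low level in 6 of them and at a much higher one in both Jak2V617F GLUT1/3 WT clones. Its FPKM was 26.8 in clone 1 and 23.01 in clone 3 of Jak2V617F GLUT1/3 WT. In Jak2V617F GLUT1/3 dKO it was 1.48 in clone 1 and 1.58 in clone 3. The Jak2WT GLUT1/3 WT clones gave 1.85 and 1.63, and the Jak2WT GLUT1/3 dKO clones 1.586 and 1.588. No value of another group came near those of Jak2V617F GLUT1/3 WT, whose lower clone was 12.4 times the highest of the other 6 libraries, and these 6 spanned only a 1.25-fold range.

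Group means ordered Jak2V617F GLUT1/3 WT first at 24.9 ± 2.65 FPKM (SD, n = 2), then Jak2WT GLUT1/3 WT at 1.74 ± 0.161, Jak2WT GLUT1/3 dKO at 1.587 ± 0.000879 and Jak2V617F GLUT1/3 dKO at 1.53 ± 0.0691. The mean of the first group was 14.3 times that of Jak2WT GLUT1/3 WT, 15.7 times that of Jak2WT GLUT1/3 dKO and 16.2 times that of Jak2V617F GLUT1/3 dKO. The Jak2WT groups differed from each other by less than the larger of their 2 SDs, and so did the dKO groups. On the log2(FPKM + 1) scale, on which the fits were made, the Wwox level of Jak2V617F GLUT1/3 WT exceeded that of Jak2V617F GLUT1/3 dKO by 3.35 and that of Jak2WT GLUT1/3 WT by 3.24. Both comparisons share the Jak2V617F GLUT1/3 WT clones. Loss of GLUT1/3 went with a log2 difference of -0.08 in the Jak2WT background against -3.35 in the Jak2V617F background, and Jak2V617F differed from Jak2WT by -0.03 among the dKO clones.

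**Figure D1:**
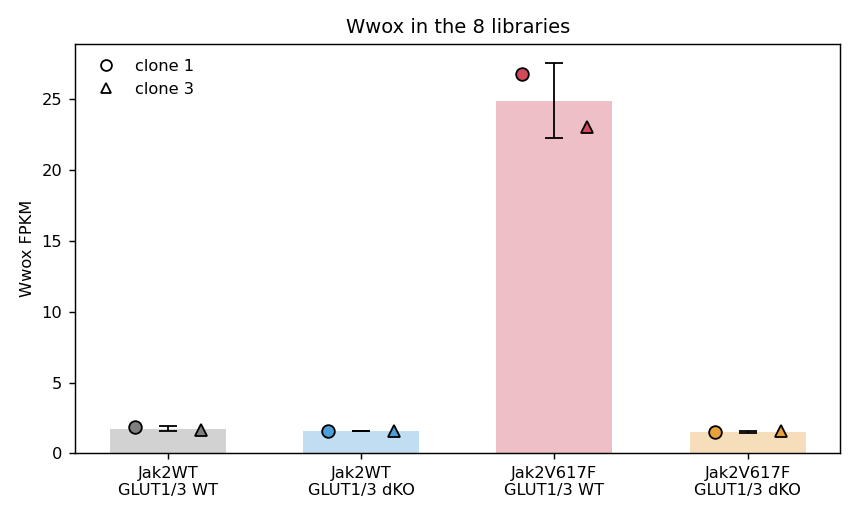
Wwox level (y axis, FPKM, from 0) in the 4 groups (x axis), with bars for the mean of 2 clones, error bars for the SD and points for clones 1 and 3. The Jak2V617F GLUT1/3 WT clones stood at 26.8 and 23.01 and the other 6 libraries between 1.48 and 1.85.

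Wwox was well covered by reads in every library. It held 5830 reads in clone 1 and 6979 in clone 3 of Jak2V617F GLUT1/3 WT, and between 287 and 796 reads in each other library. The exact Poisson 95% interval was 26.1 to 27.5 FPKM for clone 1 and 22.5 to 23.6 for clone 3 of Jak2V617F GLUT1/3 WT, so the gap between these 2 clones exceeded counting error, the only error such an interval covers. The intervals of the lowest and highest of the other 6 libraries, Jak2V617F GLUT1/3 dKO clone 1 (1.36 to 1.62) and Jak2WT GLUT1/3 WT clone 1 (1.72 to 1.99), did not overlap. These 2 were picked as the extremes, so this is a description and not a test. As a share of all reads on genes, Wwox took 0.0255% and 0.0234% in Jak2V617F GLUT1/3 WT and 0.00155% to 0.00199% in the other libraries. It was above 82.2% and 80.7% of the 11818 genes tested (at least 1 FPKM in at least 2 libraries) in the Jak2V617F GLUT1/3 WT clones and above 12.05% to 16.1% in the others.

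Of all genes tested, Wwox had the widest gap between the lowest Jak2V617F GLUT1/3 WT library and the highest of the other 6, at 3.07 log2 units. A gap of at least 1 log2 unit was found for 26 genes, spread over 12 chromosomes. The one narrowly inside was Asph, at 1.01, and the one narrowly outside was Rgs1, at 0.999. Other groups had such genes too, since 17 were set apart above the rest in Jak2WT GLUT1/3 WT, 11 in the Jak2WT clones without GLUT1/3 and 33 in Jak2V617F GLUT1/3 dKO, where Hbb-bs led with a gap of 3.70. With a pseudocount of 0.1 in place of 1, which widens the gaps of low genes, Ablim1 (4.23) passed Wwox (3.56).

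The 9 genes that followed Wwox had different known roles. Ablim1, an actin-binding LIM protein, stood at 5.84 and 6.16 FPKM in Jak2V617F GLUT1/3 WT and at 0.0849 to 0.216 elsewhere. Lgmn, the lysosomal protease legumain, was at 158 and 130 FPKM against 9.11 to 25.6. Xdh, the xanthine dehydrogenase of purine breakdown, was at 11.2 and 14.7 against 0.101 to 1.99. Lgmn was thus well expressed in every group, whereas Ablim1 was close to silent outside the Jak2V617F GLUT1/3 WT clones.
Ddc, the aromatic amino acid decarboxylase, was at 3.61 and 4.64 FPKM against 0 to 0.284. Sele, the adhesion receptor E-selectin, was at 6.97 and 9.22 against 0.0607 to 1.59. Ncoa2, a coactivator of nuclear receptors, was at 47.5 and 55.3 against 6.92 to 16.6, and Tgm2, the tissue transglutaminase, at 177 and 198 against 13.5 to 66.4. For 6 of the 9, Lgmn, Ddc, Sele, Slc9b1, Ncoa2 and Tgm2, the next highest group was Jak2V617F GLUT1/3 dKO. For Wwox that group had the lowest mean, but within an SD of that of Jak2WT GLUT1/3 dKO. D630003M21Rik (3.06 and 3.64 against 0.0206 to 0.338) and Slc9b1, a sodium/hydrogen exchanger family member (3.65 and 3.77 against 0.171 to 0.580), completed the 10.

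**Figure D2:**
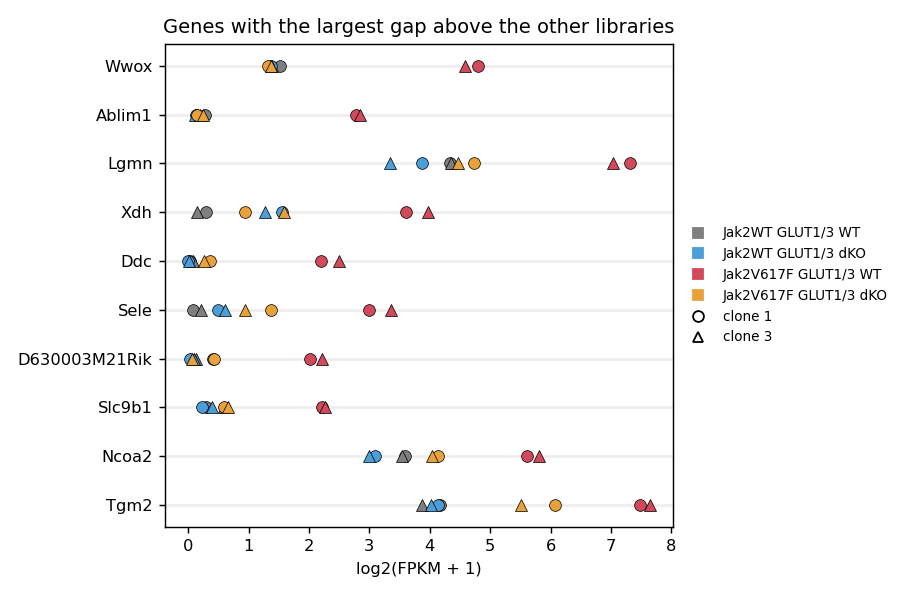
The 10 genes with the widest gap between both Jak2V617F GLUT1/3 WT libraries and the other 6, as log2(FPKM + 1) on the x axis, with colour for group and shape for clone. Wwox has the widest gap, 3.07, followed by Ablim1 (2.49), Lgmn (2.30) and Xdh (2.03).

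Likeness to Wwox was measured as Pearson's r of log2(FPKM + 1) over the 8 libraries, among tested genes whose values spanned at least 1 log2 unit. With 2 high and 6 low libraries, any gene raised in the same pair scores high, so r is given as a description of 8 libraries of 1 cell line and not as evidence of a link. The 10 highest were Ablim1 (0.998), Eif2s2 (0.996), Gm9892 (0.994), 1700042O10Rik (0.991), D630003M21Rik (0.983), Ddc (0.983), Mgst2 (0.982), Gadd45a (0.981), ENSMUSG00002076280 (0.981) and Slc9b1 (0.978). On this scale the steps of all 10 were smaller than that of Wwox. Eif2s2, a subunit of the translation initiation factor eIF2, was at 126 and 119 FPKM in Jak2V617F GLUT1/3 WT and at 58.8 to 65.7 elsewhere. Gadd45a, a stress-response gene of growth arrest, was at 29.9 and 30.6 against 12.9 to 15.996, and Mgst2, a microsomal glutathione transferase, at 7.77 and 8.02 against 3.39 to 4.23.

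Some of these genes may not be separate measurements. Gm9892 is a processed pseudogene 62.5 Mb before Wwox on chromosome 8, and 83.9% of the 31-base words of its transcript also occur in Eif2s2 transcripts, so the counting may have split reads between this pair. Ddc and 1700042O10Rik overlap on opposite strands of chromosome 11, and whether the counting used strand is not given in the sources used here. ENSMUSG00002076280 is a short miRNA gene with no reads in the 4 Jak2WT libraries, and its value in a polyA library is uncertain.

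Few genes around Wwox were detected in these cells. Of the 29 neighbours, 8 are protein coding, 20 had no read in any library and 7 had reads without reaching the filter, the highest of these at 0.645 FPKM. Just inside and just outside the 2 Mb limit lay Gm26994 and Gm3635 on one side and 1700018P08Rik and Gm5357 on the other, all at 0 in every library. Maf, the transcription factor gene that follows Wwox at 1.24 Mb from its start, had no read in any library, where 3 reads in the shallowest library would have been 0.0210 FPKM. Cntnap4, Adamts18 and Clec3a were likewise at 0, Vat1l reached 0.0145 FPKM and Syce1l 0.0697.

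The 2 neighbours that passed the filter did not follow Wwox. Nudt7, a peroxisomal Nudix hydrolase gene 0.306 Mb before the start of Wwox, was at 0.956 and 0.914 FPKM in Jak2V617F GLUT1/3 WT and at 1.15 and 0.826 in Jak2V617F GLUT1/3 dKO. Mon1b, which helps to activate Rab GTPases on endosomes, lies 0.804 Mb before it and was at 10.96 and 10.4 FPKM in Jak2V617F GLUT1/3 WT and at 10.8 and 9.35 in Jak2V617F GLUT1/3 dKO. For both genes the values of these groups overlapped.
Against Jak2V617F GLUT1/3 dKO the log2 difference was 0.08 for Mon1b (95% interval -0.15 to 0.31, limma adjusted p = 0.579) and -0.03 for Nudt7 (-0.38 to 0.31, limma adjusted p = 0.888). Against Jak2WT GLUT1/3 WT it was -0.04 for Mon1b (-0.27 to 0.19, limma adjusted p = 0.779) and -0.14 for Nudt7 (-0.49 to 0.21, limma adjusted p = 0.507). Neither was called by limma in either comparison, and 0 of the 2 had an unadjusted p under 0.05 or was called with voom weights on the recovered reads. For comparison, 16.2% of all genes tested were called higher and 13.7% lower against Jak2V617F GLUT1/3 dKO, and 15.3% higher and 14.9% lower against Jak2WT GLUT1/3 WT. All 4 intervals exclude a change of the size seen for Wwox.

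Inside the Wwox span, 4 annotated genes overlap it on the opposite strand, and none reached the filter. Gm16116 had 7 reads at most, 0.326 and 0 FPKM in the Jak2V617F GLUT1/3 WT clones and 0.645 in its highest library, Jak2V617F GLUT1/3 dKO clone 3. Gm16118 and 5S_rRNA had at most 1 and 2 reads and none in the Jak2V617F GLUT1/3 WT clones, and Gm16117 had none in any library. If the counting ignored strand, reads from these genes and from Wwox could not be told apart where exons overlap.

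Beyond Wwox, towards the end of chromosome 8, many genes were modestly higher in the same clones. This split of the chromosome at the start of Wwox was chosen after the values were seen, so it is described without a test. The next tested gene after Wwox is Cmc2, 2.45 Mb from its start, and 115 tested genes lie beyond that start. Their median log2 difference was 0.29 (quartiles -0.07 to 0.50) against Jak2V617F GLUT1/3 dKO and 0.24 (0.00 to 0.51) against Jak2WT GLUT1/3 WT. The 536 tested genes before Wwox had medians of 0.04 and 0.01, and all tested genes 0.02 and 0.01. Beyond Wwox, 81 of 115 genes had a positive difference in the former comparison and 87 in the latter.
Called higher were 43 of the 115 against Jak2V617F GLUT1/3 dKO, or 37.4%, where the share over all genes was 16.2%, and 6 were called lower. Against Jak2WT GLUT1/3 WT 45 were called higher, or 39.1% beside 15.3%, and 4 lower. The counts fell when libraries were left out, as did those over all genes. In the former comparison 24 were called higher without Jak2V617F GLUT1/3 WT clone 1, beside 8.61% of all genes, 25 without Jak2V617F GLUT1/3 dKO clone 3, beside 14.2%, and 23 when the 2 groups were fitted alone, beside 7.22%. In the latter 18 and 21 were called higher without Jak2WT GLUT1/3 WT clone 1 or 3, beside 6.79% and 7.08% of all genes, and 22 without Jak2V617F GLUT1/3 WT clone 1, beside 8.82%. The medians stayed between 0.24 and 0.36 and between 0.20 and 0.32 without any 1 library. With all libraries at the same summed FPKM they were 0.21 and 0.11, where the median of all genes moved to -0.06 and -0.12, and with no filter on low FPKM, over 214 genes, 0.0094 and 0.033.

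**Figure D3:**
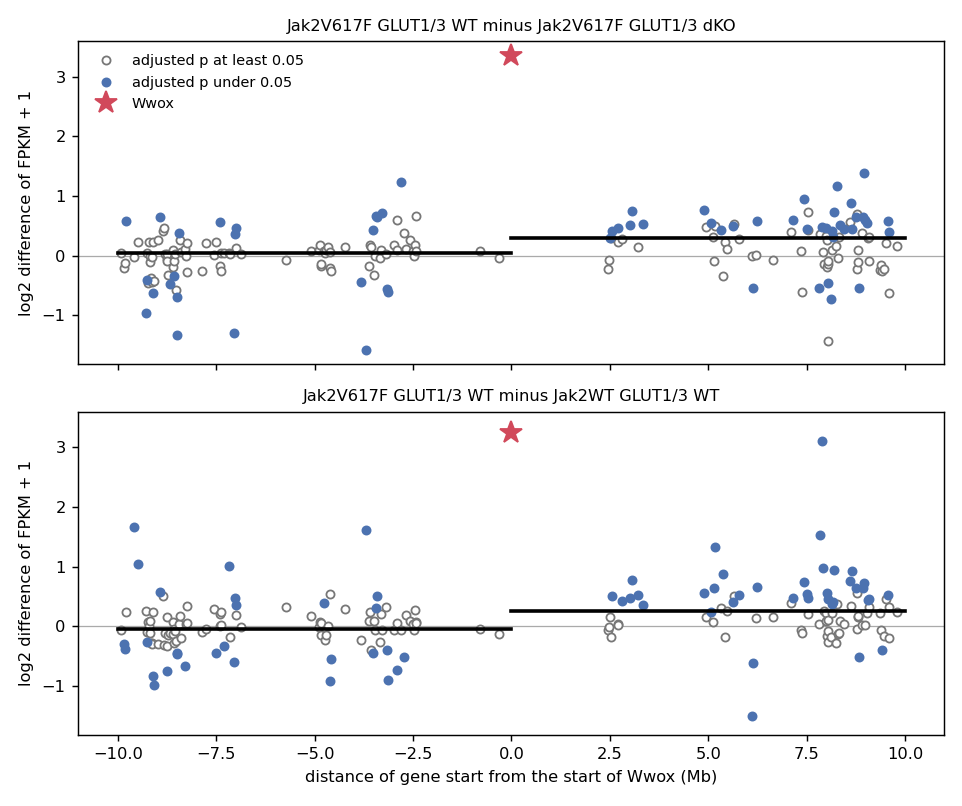
log2 differences of FPKM + 1 (y axis) for the tested genes within 10 Mb of the start of Wwox (x axis, distance in Mb), with filled points for adjusted p under 0.05, a star for Wwox and black lines for the median on each side. The upper panel sets Jak2V617F GLUT1/3 WT against Jak2V617F GLUT1/3 dKO, with medians of 0.04 before and 0.30 after Wwox, and the lower panel against Jak2WT GLUT1/3 WT, with -0.04 and 0.25.

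The same pattern appeared in both clones. Taken as the deviation of each gene from its own mean over the 8 libraries, the median over the 115 genes was 0.26 in clone 1 and 0.18 in clone 3 of Jak2V617F GLUT1/3 WT and between -0.13 and -0.01 in the other 6 libraries. Before Wwox the corresponding medians were between -0.06 and 0.03 in all 8. The 27 tested genes more than 10 Mb beyond the start of Wwox had medians of 0.22 and 0.18 in the 2 comparisons. Among the other 20 chromosomes, each taken whole and the mitochondrial one included, medians ran from -0.28 (chromosome 16) to 0.26 (chromosome 3) against Jak2V617F GLUT1/3 dKO, and from -0.36 (the mitochondrial chromosome) to 0.06 (chromosome 6) against Jak2WT GLUT1/3 WT. Chromosome 16, with 375 tested genes, was at -0.33 in the latter comparison, so it was lower in both. The 115 genes are a part of a chromosome picked after the values were seen.

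**Figure D4:**
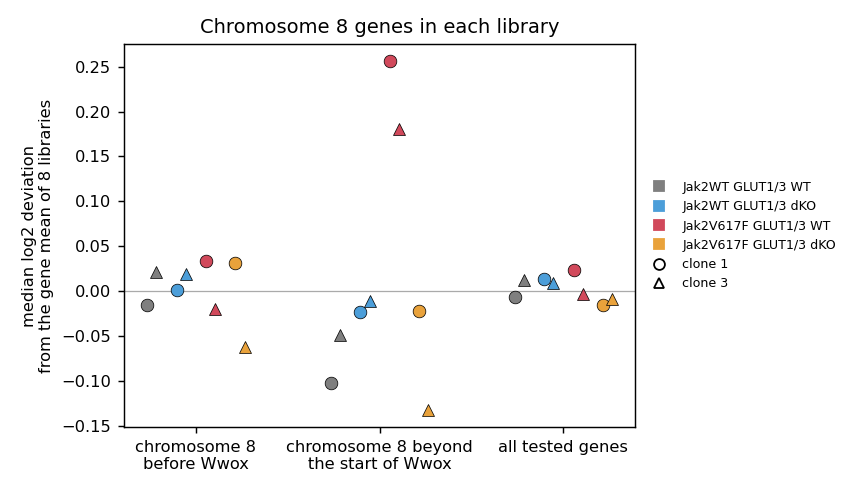
Median log2 deviation of genes from their own mean over 8 libraries (y axis) for chromosome 8 before Wwox, chromosome 8 beyond its start and all tested genes (x axis), with 1 point per library. Beyond the start of Wwox, Jak2V617F GLUT1/3 WT clones 1 and 3 stand at 0.26 and 0.18 and the other libraries at -0.01 or lower.

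Plcg2, Cox4i1 and Cbfa2t3, named after their values were seen, are among the larger of these differences, above the upper quartile, whereas Cmc2 and Cenpn, the tested genes that come next after Wwox, had differences of -0.23 and -0.08 against Jak2V617F GLUT1/3 dKO. Plcg2, a phospholipase C of haematopoietic receptor signalling 3.06 Mb beyond the start of Wwox, was at 56.4 and 46.6 FPKM in Jak2V617F GLUT1/3 WT and at 27.6 to 30.8 in the other 6 libraries. Cox4i1, a subunit of cytochrome c oxidase, was at 234 and 224 against 140 to 163. Cbfa2t3, a corepressor of blood progenitors, was at 80.7 and 69.3 against 38.2 to 45.8. In all of them both Jak2V617F GLUT1/3 WT clones lay above every other library, but the steps were under 1 log2 unit where that of Wwox was over 3.

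Many proteins are known to bind WWOX, and 17 of the 25 partner genes listed passed the filter, while the other 8 stayed at or under 0.202 FPKM. Against Jak2V617F GLUT1/3 dKO, 4 were higher and 9 lower in Jak2V617F GLUT1/3 WT, beside 16.2% and 13.7% of all genes, and the list's median was -0.28 beside 0.02. Against Jak2WT GLUT1/3 WT, 2 were higher and 5 lower, beside 15.3% and 14.9%, and the median was -0.06 beside 0.01. The 13 calls of the former comparison fell to 4 without Jak2V617F GLUT1/3 WT clone 1, 6 without clone 3, 7 without Jak2V617F GLUT1/3 dKO clone 1, 8 without either Jak2WT GLUT1/3 WT clone, 7 with no filter on low FPKM and 4 when the 2 groups were fitted alone. The share of all genes called in either direction fell in the same fits, from 29.9% to between 10.1% with no filter and 23.9% without either Jak2WT GLUT1/3 WT clone. The 7 calls of the latter fell to 4 without Jak2WT GLUT1/3 WT clone 1, where the share over all genes fell from 30.3% to 14.2%. Over all alternative fits, Brca1, Itch and Hif1a kept their call in the former comparison and Brca1, Tnk2, Gsk3b and Vopp1 in the latter, and every other partner call was lost in at least 1.

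Among partners in DNA damage signalling, Brca1, which acts in homologous recombination, fell the most. It was at 4.32 and 3.55 FPKM in Jak2V617F GLUT1/3 WT, 13.2 and 15.3 in Jak2V617F GLUT1/3 dKO, 9.81 and 9.50 in Jak2WT GLUT1/3 WT and 9.93 and 11.4 in Jak2WT GLUT1/3 dKO. The Jak2V617F GLUT1/3 WT clones were thus the lowest of the 8 for Brca1, where they were the highest for Wwox. The log2 difference was -1.63 ± 0.115 (SE, limma adjusted p = 0.000383) against Jak2V617F GLUT1/3 dKO and -1.12 ± 0.115 (limma adjusted p = 0.00103) against Jak2WT GLUT1/3 WT, and both calls held in every alternative fit. Atm, the kinase that responds to DNA double-strand breaks, had 5.63 and 5.81 FPKM in Jak2V617F GLUT1/3 WT, also below the 7.59 to 10.2 of the other libraries. Its log2 differences were -0.55 (limma adjusted p = 0.0171) and -0.50 (limma adjusted p = 0.0222). Trp53, the tumour suppressor p53, was at 22.8 and 22.9 FPKM against 30.1 and 46.1 in Jak2V617F GLUT1/3 dKO, a log2 difference of -0.68 (limma adjusted p = 0.0232). Across the alternative fits this ran from -0.98 to -0.38, and the call was lost when the 2 groups were fitted alone (limma adjusted p = 0.092). Against the 32.4 and 34.8 of Jak2WT GLUT1/3 WT it did not pass, at -0.54 (limma adjusted p = 0.0515).

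Of the kinases and transcription factors that bind WWOX, Tnk2, a kinase that phosphorylates WWOX, was lower by -0.42 (limma adjusted p = 0.0268) and -0.67 (limma adjusted p = 0.00495) on the log2 scale in the 2 comparisons. Gsk3b, a kinase of Wnt signalling, was lower by -0.28 (limma adjusted p = 0.0231) and -0.58 (limma adjusted p = 0.00177). Hif1a, the oxygen-regulated subunit of HIF-1, was at 28.0 and 26.4 FPKM in Jak2V617F GLUT1/3 WT and at 20.1 and 19.0 in Jak2V617F GLUT1/3 dKO, a difference of 0.46 (limma adjusted p = 0.00543). It was at 27.4 in both Jak2WT GLUT1/3 WT clones, a difference of -0.01 (limma adjusted p = 0.925). Mapk8, the kinase JNK1, rose by 0.41 (limma adjusted p = 0.014) in the former comparison, and Jun, its substrate, fell by 0.55 (limma adjusted p = 0.0479). Runx2 and Smad3, both transcription factors, had differences of 0.03 and -0.32, of which only that of Smad3 passed (limma adjusted p = 0.0436). Against Jak2WT GLUT1/3 WT none of these 4 passed, with differences of 0.02 for Mapk8 (limma adjusted p = 0.906), -0.05 for Jun (limma adjusted p = 0.866), 0.19 for Runx2 (limma adjusted p = 0.324) and, of the opposite sign, 0.27 for Smad3 (limma adjusted p = 0.0744).

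Adaptors and ubiquitin enzymes went both ways. Itch, a ubiquitin ligase for WWOX, was at 18.1 and 17.6 FPKM in Jak2V617F GLUT1/3 WT and at 11.9996 to 13.7 in the other 6 libraries. It rose by 0.53 (limma adjusted p = 0.00199) and 0.37 (limma adjusted p = 0.00798). Vopp1, a binding partner found on lysosomes, rose by 0.42 (limma adjusted p = 0.0256) and 0.75 (limma adjusted p = 0.00306). Litaf, a regulator of endosomal sorting, fell by 0.32 (limma adjusted p = 0.0331) and 0.39 (limma adjusted p = 0.0164), and Ezr, the membrane linker ezrin, fell by 0.48 (limma adjusted p = 0.0107) in the former comparison. Wbp1, Wbp2 and Dvl2, which carry WW-binding motifs, passed in neither comparison, with differences from -0.20 to 0.17.

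**Figure D5:**
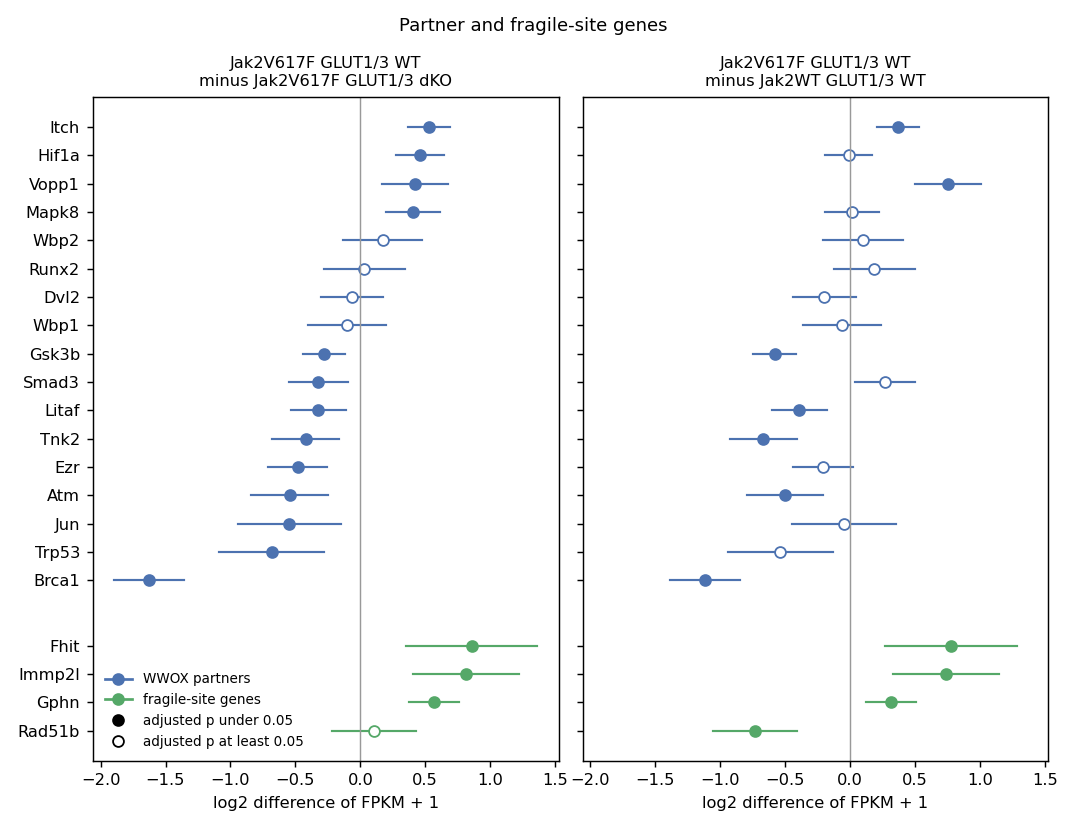
log2 differences of FPKM + 1 (x axis) with 95% intervals for the tested WWOX partners (blue) and fragile-site genes (green), Jak2V617F GLUT1/3 WT minus Jak2V617F GLUT1/3 dKO on the left and minus Jak2WT GLUT1/3 WT on the right, with filled points for adjusted p under 0.05. Brca1 lies lowest at -1.63 and -1.12, and Fhit, Immp2l and Gphn lie above 0 in both panels.

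Other very long genes at common fragile sites were mostly silent here, since only 4 of the 24 listed passed the filter and the other 20 stayed at or under 0.298 FPKM. Fhit, a diadenosine hydrolase gene and a tumour suppressor at a fragile site like Wwox, was at 6.33 and 5.42 FPKM in Jak2V617F GLUT1/3 WT. It was at 3.47 and 2.21 in Jak2V617F GLUT1/3 dKO, 2.93 and 3.09 in Jak2WT GLUT1/3 WT and 2.42 and 1.32 in Jak2WT GLUT1/3 dKO, so both Jak2V617F GLUT1/3 WT clones were above the rest. Immp2l, a subunit of a mitochondrial inner membrane peptidase, was at 3.24 and 3.02 FPKM against 1.14 to 2.01 in the other 6 libraries. Gphn, the scaffold protein gephyrin, was at 25.3 and 22.2 against 15.2 to 19.0.
These 3 rose against Jak2V617F GLUT1/3 dKO, by 0.86 (limma adjusted p = 0.0234), 0.81 (limma adjusted p = 0.0131) and 0.57 (limma adjusted p = 0.00305) on the log2 scale. They also rose against Jak2WT GLUT1/3 WT, by 0.77 (limma adjusted p = 0.0326), 0.74 (limma adjusted p = 0.0177) and 0.31 (limma adjusted p = 0.0268). Rad51b, a gene of homologous recombination, differed by 0.10 (limma adjusted p = 0.601) in the former comparison and fell by 0.74 (limma adjusted p = 0.00798) in the latter. These were 3 higher of 4 tested, beside 16.2% of all genes, and then 3 higher and 1 lower, beside 15.3% and 14.9%, counts too small to read against those shares. Calls were lost in some fits without 1 library, where fewer of all genes were called too. Across alternative fits, Fhit ran from 0.62 to 1.10 against Jak2V617F GLUT1/3 dKO, Immp2l from 0.75 to 1.16 and Gphn from 0.48 to 0.66. Against Jak2WT GLUT1/3 WT they ran from 0.65 to 0.94, 0.63 to 1.04 and 0.16 to 0.40. Rad51b ran from -1.20 to -0.67 there. None of these genes came near the 14.3-fold and 16.2-fold ratios of Wwox.

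Markers of other blood lineages moved between the same groups. The 9 erythroid markers summed to 94.0 to 112 FPKM in Jak2WT GLUT1/3 WT, 246 to 290.5 in Jak2WT GLUT1/3 dKO, 553 to 910 in Jak2V617F GLUT1/3 WT and 2582 to 4679 in Jak2V617F GLUT1/3 dKO, with Alas2 and Slc4a1 at or under 0.312 throughout. This order has Jak2V617F GLUT1/3 dKO highest, and it is the order of the globin genes Hba-a1 and Hbb-bs. For Wwox that group had the lowest mean, but within an SD of that of Jak2WT GLUT1/3 dKO. Of the 7 that were tested, 1 was higher in Jak2V617F GLUT1/3 WT and 5 lower against Jak2V617F GLUT1/3 dKO. Over all genes tested, 16.2% were called higher and 13.7% lower in this comparison. Against Jak2WT GLUT1/3 WT 5 of the 7 were higher and 0 lower, beside 15.3% and 14.9% of all genes. The 1 higher in the former was Gata1, the erythroid transcription factor, which was highest in Jak2V617F GLUT1/3 WT, at 58.1 and 48.7 FPKM against 24.9 to 41.1 in the other libraries, and differed from Jak2V617F GLUT1/3 dKO by 0.50 (limma adjusted p = 0.0246). The 6 mast cell and basophil markers summed to 156 to 164 FPKM in Jak2V617F GLUT1/3 WT and to 121 to 222 in the other groups, with Prss34 at 0 throughout. Of the 2 tested members, Cpa3, a mast cell carboxypeptidase, was lower in Jak2V617F GLUT1/3 WT, at 0.554 and 0.531 FPKM against 94.8 and 78.2 in Jak2WT GLUT1/3 WT (limma adjusted p = 0.000438). It was also low in Jak2V617F GLUT1/3 dKO, at 0 and 1.67 FPKM, a log2 difference of -0.08 (limma adjusted p = 0.91). Gata2, a transcription factor, was at 163 and 156 FPKM against 123 and 124 and did not pass the test (limma adjusted p = 0.0806). The 12 myeloid progenitor markers summed to 228 to 241 FPKM in Jak2V617F GLUT1/3 WT, 111 to 117 in Jak2V617F GLUT1/3 dKO, 261 to 293 in Jak2WT GLUT1/3 WT and 199 to 231 in their dKO counterparts. Of the 7 of these that were tested, 4 were higher in Jak2V617F GLUT1/3 WT and 0 lower against Jak2V617F GLUT1/3 dKO. The shares over all genes were 16.2% and 13.7%. Against Jak2WT GLUT1/3 WT 3 were higher and 0 lower, beside 15.3% and 14.9%. Ptprc, the leukocyte phosphatase CD45, was called in both, at 31.04 and 33.2 FPKM against 8.81 to 26.6 elsewhere. Csf2rb, a cytokine receptor subunit, and Myb, a transcription factor, were higher than in Jak2V617F GLUT1/3 dKO by 1.29 (limma adjusted p = 0.0013) and 0.77 (limma adjusted p = 0.0204). Against Jak2WT GLUT1/3 WT their differences were -0.44 (limma adjusted p = 0.0565) and -0.43 (limma adjusted p = 0.122). The 6 lymphoid markers summed to 5.34 to 6.15 FPKM in Jak2V617F GLUT1/3 WT and 4.82 to 9.42 in the other groups, with Ms4a1 at 0. Their part in the differences above was not tested, and in bulk RNA fewer cells of a type and less RNA per cell cannot be told apart.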

How the data were processed

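The table held 1 FPKM value per gene for each of the 8 libraries. Per the labels, the authors trimmed reads with fastp 1.0.1, aligned them to mm39 with HISAT2 2.2.1 and counted them with featureCounts 2.0.6, and the deposited FPKM values followed from these counts. The annotation version, the strand setting and the total used for FPKM are not given in the sources used here. FPKM times gene length was a whole multiple of 1 step per library (100.0% of values, within 0.01 of a step), so reads on genes were recovered.

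Values were tested as log2(FPKM + 1) with limma 3.58.1 in R 4.3.3, on genes with at least 1 FPKM in at least 2 libraries, with 4 group means, moderated variances with a trend and Benjamini-Hochberg adjustment over all 11818 genes. Calls have an adjusted p under 0.05. A transgene shared by all groups and an erythroid marker are not reported here. Exact permutation of 2 against 2 libraries cannot give a p below 0.333, so none was used. Wwox, the lists and the named genes were chosen with earlier results of these data known. Named were the label-check, partner, fragile-site and tested neighbour genes, the 10 genes most like Wwox and the 10 with the widest gap. Transcript features came from GENCODE M39, whose build is that of the table. The fits were tested on simulated data. Alternatives were another pseudocount, no filter, a common summed FPKM, voom weights on the recovered reads, the compared groups alone, a clone-number block and each library left out.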

Additional observations from a re-analysis of the deposited data

Results flagged for a closer look

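Among the 23 partner, fragile-site and neighbour genes tested, 6 differed between backgrounds in their response to GLUT1/3 loss by the interaction term of the limma fit, beside 10.6% of all genes tested. The interaction is the log2 change on GLUT1/3 loss in Jak2V617F minus that in Jak2WT. It was 1.5003 for Brca1 (limma adjusted p = 0.00867), which rose by 1.63 on GLUT1/3 loss in Jak2V617F and by 0.13 in Jak2WT. It was 1.04 for Tnk2 (limma adjusted p = 0.0151), 1.28 for Jun (limma adjusted p = 0.0227) and 0.57 for Gsk3b (limma adjusted p = 0.0184), each higher after GLUT1/3 loss in Jak2V617F and lower in Jak2WT. It was -0.54 for Hif1a (limma adjusted p = 0.0291) and -0.39 for Itch (limma adjusted p = 0.0467). Hif1a changed by -0.46 on GLUT1/3 loss in Jak2V617F and 0.08 in Jak2WT, and Itch by -0.53 and -0.14. The count of 6 fell to 1 without Jak2WT GLUT1/3 WT clone 1, 0 without its clone 3, 1 without Jak2WT GLUT1/3 dKO clone 1 and 2 without Jak2V617F GLUT1/3 WT clone 1, while the interaction calls over all genes fell from 1256 to 68, 5, 63 and 360 in the same fits. The interaction of Wwox itself was not tested, because that pattern chose the gene.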

How the results depend on the processing

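For Jak2V617F GLUT1/3 WT against Jak2V617F GLUT1/3 dKO, the Wwox difference of 3.35 became 3.93 with a pseudocount of 0.1 and 3.93 with voom weights on reads, and against Jak2WT GLUT1/3 WT the 3.24 became 3.76 and 3.69. Without 1 library it ran from 3.24 to 3.45 and from 3.13 to 3.34. No filter on low FPKM left 7 partner calls and 1 fragile-site call in the former comparison, 2 fragile-site calls in the latter and 3 interaction calls, the fit of the compared groups alone left 4 partner calls in the former, and voom gave 10 interaction calls. In some fits without 1 library, partner, fragile-site and interaction calls were lost, as were calls over all genes, and the tested neighbours stayed uncalled. A window of 10 Mb, added after the data were seen, held 59 and 67 called genes of 192 tested, or 30.7% and 34.9% beside 29.9% and 30.3% of all genes.

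The median of the 115 chromosome 8 genes beyond the start of Wwox was 0.21 and 0.11 with all libraries at the same summed FPKM, 0.17 with voom in the latter comparison, and 0.0094 and 0.033 over the 214 genes left with no filter, where many values lie near 0. Without 1 library it ran from 0.24 to 0.36 and from 0.20 to 0.32. The common sum moved the median of all genes to -0.06 and -0.12, so relative to all genes the medians were 0.26 and 0.23 beside 0.27 and 0.23. It also moved the split of calls from 1919 higher and 1614 lower to 1452 and 2192, and from 1812 and 1765 to 1223 and 2930. Voom called 1617 higher and 2344 lower, and 1399 and 2655.

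Clone numbers did not pair the libraries, since the differences between clones 1 and 3 correlated between groups at -0.25 to 0.15. With clone number as a block the Wwox differences were 3.35 and 3.24 and 1740 genes were called higher and 1486 lower, and 1708 and 1647. With 2 clones a group, each call of a single gene rests on 1 shared variance estimate, and 93 of the 672 alternative values of 24 tested genes (the partner, fragile-site and neighbour genes and Plcg2) lost their call while 11 gained one. FPKM per gene cannot show which Wwox exons or transcripts changed.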
